A study of Rattus norvegicus with 12 samples.

Results

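The 37 genes described here make up the interferon response and the antigen processing pathway that runs with it, in primary rat atrial fibroblasts. They were chosen by gene symbol, as genes known to be induced by interferon or to process and present peptides on major histocompatibility complex (MHC) class I, with 2 genes of the class II pathway. All 37 symbols were found among the 22850 features of the deposited tables. The members comprise 2 sensors of viral RNA, 6 transcription factors, 18 antiviral effectors, a feedback regulator with a chemokine, 7 genes of the class I pathway and the 2 class II genes.

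The study sequenced atrial fibroblasts from Sprague-Dawley rats 1 to 3 days old, separated from the other heart cells by differential adhesion. All 12 cultures were in 2% serum and received angiotensin II (AngII), the peptide hormone of blood pressure control that activates fibroblasts, at 1 µmol/L for 48 h. The AngII group received this alone. The AngII+HNG group was given 10 µmol/L HNG, an analogue of the mitochondrial-derived peptide humanin, from 1 h before AngII, and the AngII+MOTS-c group 5 µmol/L MOTS-c, another mitochondrial-derived peptide, in the same way. Each group has 4 libraries. None of the groups was kept without AngII or given a peptide without it, so the effect of AngII itself was not measured. The peptide doses differ, so the comparison of HNG with MOTS-c sets 2 treatments side by side and not 2 peptides at a matched dose. Adhesion enriches fibroblasts and does not sort them.

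Cells meet viral nucleic acid with sensors such as MDA5 (the product of Ifih1), which act through IRF3 and IRF7 to switch on interferon genes. Secreted type I interferon then binds its receptor, and the kinases JAK1 and TYK2 activate STAT2, which acts with IRF9 in a complex that binds the interferon-stimulated response element (ISRE) in the promoters of many target genes. Interferon gamma acts through the gamma-activated site (GAS), and it induces IRF1, CIITA and the genes of antigen presentation. Fibroblasts express MHC class I at rest and carry a complete interferon response, while class II is largely the business of professional antigen-presenting cells.

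The promoters of the members show these elements. RefSeq windows of 300 bases, from 250 before to 50 after the annotated start (assembly GRCr8), were matched for 29 of the 37 genes, and no window was matched for Dhx58, Ifit1, Ifit2, Isg15, Mx2, Oas2, Usp18 and Ciita. The letters GAAANNGAA, the core of the ISRE, stood on either strand in 20 of the 29 windows (69.0%) and in 9.71% of all 33469 windows. The letters TTCNNNGAA of the GAS stood in 8 of 29 (27.6%) against 8.87% of all windows, and CCAAT, a general promoter element, in 14 of 29 (48.3%) against 37.5%. A match is a description of the letters and not a bound site. The 180 bases before the start are given below for 4 members with the core (Bst2 and B2m because they differed between treatments, Ifi27 and Ifit3 as one of the highest and one of the lowest members with it) and for Irf3, which has no match in its window. All run 5′ to 3′ on the strand of the gene, and capitals mark GAAANNGAA or its reverse complement.
Bst2, chr16:18254968-18255147, minus strand: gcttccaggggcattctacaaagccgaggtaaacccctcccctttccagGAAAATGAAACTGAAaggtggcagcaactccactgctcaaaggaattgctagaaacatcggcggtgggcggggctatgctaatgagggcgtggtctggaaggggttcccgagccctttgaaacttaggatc
B2m, chr3:129549150-129549329, plus strand: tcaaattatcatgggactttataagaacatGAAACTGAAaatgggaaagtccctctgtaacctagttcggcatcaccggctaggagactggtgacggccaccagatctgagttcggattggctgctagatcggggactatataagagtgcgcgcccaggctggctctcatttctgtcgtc
Ifi27, chr6:128355132-128355311, plus strand: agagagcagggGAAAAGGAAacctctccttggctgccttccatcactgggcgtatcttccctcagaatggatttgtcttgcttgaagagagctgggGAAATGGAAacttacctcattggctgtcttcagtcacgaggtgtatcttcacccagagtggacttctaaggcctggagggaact
Ifit3, chr1:241527146-241527325, plus strand: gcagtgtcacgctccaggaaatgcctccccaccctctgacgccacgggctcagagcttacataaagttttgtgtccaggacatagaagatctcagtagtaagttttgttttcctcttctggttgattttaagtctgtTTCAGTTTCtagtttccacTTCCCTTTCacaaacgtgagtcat
Irf3, chr1:104616428-104616607, plus strand: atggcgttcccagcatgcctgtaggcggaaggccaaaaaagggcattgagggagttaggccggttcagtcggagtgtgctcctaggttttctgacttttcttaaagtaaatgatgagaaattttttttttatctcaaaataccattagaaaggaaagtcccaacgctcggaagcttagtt
Bst2 holds 2 cores that overlap and B2m holds 1 core, 150 bases before its start. Ifi27 holds 2 cores, the nearer 84 bases before the start, and Ifit3 holds 2 on the opposite strand within 43 bases of it. The core was found in members of high and of low level. Of the members with a window, 14 of the 20 members with it and 6 of the 9 without it averaged at least 1 FPKM (fragments scaled to gene length and to the depth of the library, the scale on which levels of different genes can be compared), and the medians were 2.84 and 2.81 FPKM.

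The 12 libraries held 27960586 to 38322354 counts, so that the floor of 3 counts lay at 0.0783 to 0.107 CPM (counts scaled to the depth of the library). All 12 fibroblast markers averaged above 1 FPKM in the series, with Col1a1 at 4234 FPKM, but the cultures also held RNA of other cells. Of the 12, Tcf21 (0.28 on the log2 scale) and Thy1 (0.17) were called higher with AngII+HNG than with AngII and none lower. Summed over 10 cardiomyocyte markers the libraries ranged from 3425 to 4636 FPKM, and 1 of the 10, Tnni3 (0.43), was called higher in the same comparison. Summed over 17 macrophage markers they ranged from 202.7 to 241.2 FPKM with AngII, from 200.8 to 240.3 with AngII+MOTS-c and from 277.0 to 361.1 with AngII+HNG, where no library overlapped the other groups. Without Lyz2, the most abundant of the 17 and left out after its values were seen, the sums were 125.7 to 150.4, 126.4 to 146.6 and 147.7 to 198.4 FPKM in the same order, and AngII+HNG overlapped AngII. The 14 markers of dendritic, B and T cells all averaged below 1 FPKM over the 12 libraries, with Xcr1, Cd79b, Ms4a1, Cd3e, Cd3d and Nkg7 at 0 in every library. The most abundant of them, Itgax, which macrophages also carry, averaged 0.585 FPKM with AngII and 0.994 with AngII+HNG, where it reached 1.37 (log2 fold change 0.39, adjusted p = 0.0997 in edgeR). Of 9 endothelial markers, 4 were higher with AngII+HNG than with AngII (Kdr, Tie1, Tek and Egfl7), 5 did not pass, and Emcn was at -0.19. Their sum was 28.2 to 31.0 FPKM with AngII+HNG and 21.6 to 24.8 with AngII. Of 9 markers of smooth muscle and pericytes, 5 were lower with AngII+HNG than with AngII, among them Acta2 (-0.29 on the log2 scale) and Tagln (-0.32), which make up most of the list's FPKM and which activated fibroblasts express too. Des (0.02), Rgs5 (-0.05), Kcnj8 (-0.18) and Abcc9 (-0.27) did not pass. In bulk RNA a change in the number of cells of a type and a change in RNA per cell cannot be told apart. AngII+HNG replicate 3 differed most from the other libraries of its group.

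The members covered a range from 0.0169 to 169.2 FPKM in their means over the 12 libraries. B2m stood first, followed by Ifi27 (90.6 FPKM), Irf3 (41.7), Ifit2 (17.7), Tapbp (11.8) and Stat2 (11.0), and these 6 were the members at or above 10 FPKM. A further 16 lay between 1 and 10 FPKM. The other 15 lay below 1 FPKM, with 0 to 64 counts in a library. The 11 of these 15 that could be tested had standard errors of 0.20 to 0.64 for a log2 fold change (median 0.33). Of all features 51.9% averaged at least 1 FPKM, against 22 of the 37 members.

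**Figure D1:**
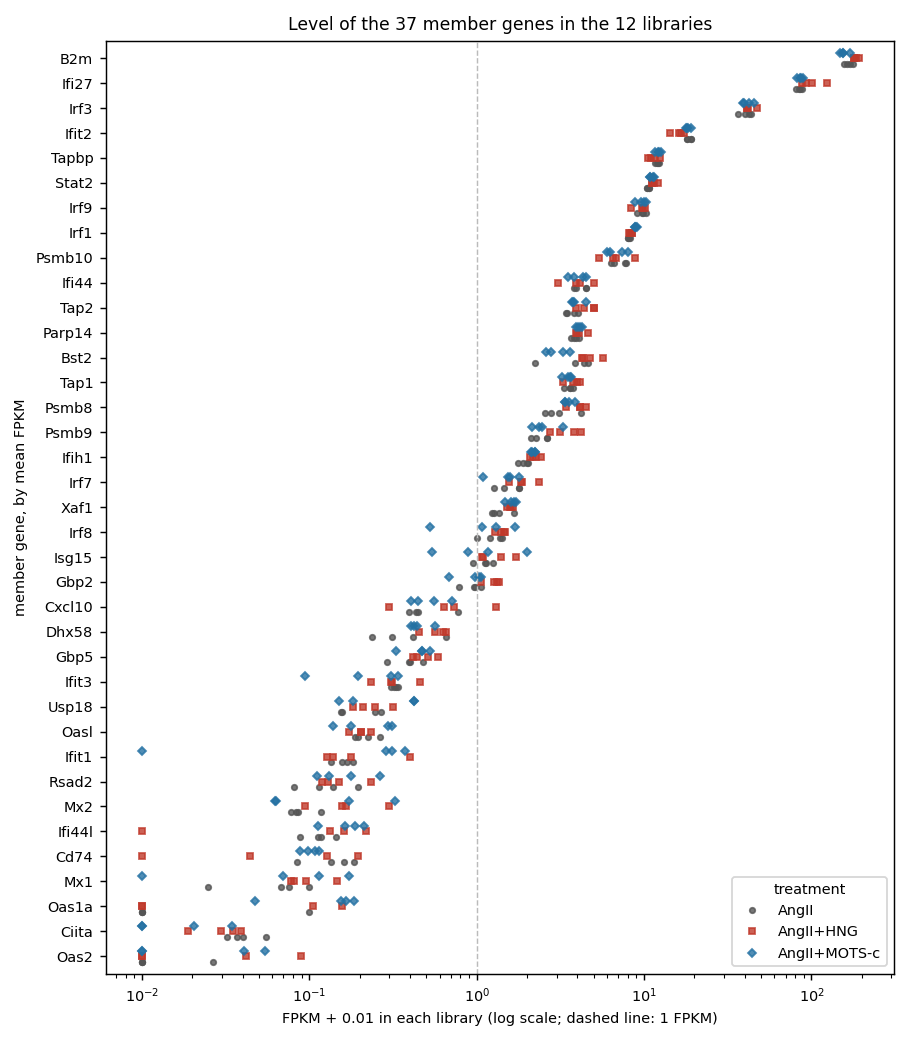
FPKM of each member in each of the 12 libraries, on a log axis after adding 0.01, with members ordered by their mean; a point at the left edge is a library with 0 counts. B2m, Ifi27, Irf3 and Ifit2 stand at the top with tight libraries, while the members below 1 FPKM, among them Ifit1, Mx1, Oas2 and Cd74, scatter widely.

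The sensors were low to moderate. Ifih1, which encodes the sensor MDA5 of long double-stranded RNA, stood at 1.89, 2.01, 1.76 and 1.99 FPKM in the AngII libraries, 2.27, 2.43, 2.06 and 2.17 in the AngII+HNG libraries and 2.14, 2.21, 2.24 and 2.10 in the AngII+MOTS-c libraries. All 4 libraries of each peptide group lay above the highest AngII library. Dhx58, the regulator LGP2 of the same receptor family, averaged 0.470 FPKM.

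All 6 transcription factors averaged at least 1 FPKM. Irf3, the factor that is present before any stimulus and starts the response, stood at 40.2, 43.7, 42.5 and 36.3 FPKM with AngII, 41.1, 40.9, 47.1 and 41.8 with AngII+HNG and 39.8, 42.6, 38.8 and 45.2 with AngII+MOTS-c, and the groups overlapped. Irf7, the factor that interferon itself induces to amplify the response, averaged 1.65 FPKM. It stood at 1.79, 1.27, 1.77 and 1.44 FPKM with AngII, 1.55, 1.83, 2.34 and 1.86 with AngII+HNG and 1.09, 1.56, 1.78 and 1.52 with AngII+MOTS-c, again with overlap. Stat2 and Irf9, which act together in the complex that binds the ISRE, averaged 11.0 and 9.62 FPKM, Irf1 8.44 FPKM and Irf8, a factor best known from blood cells, 1.26 FPKM. In the order of levels Stat2, Irf9 and Irf1 follow each other closely, and the libraries of Irf9 and Irf1 overlap.

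The antiviral effectors divided widely in level. Ifit2, of the family that binds foreign RNA, averaged 17.7 FPKM, while its relatives Ifit3 and Ifit1 averaged 0.286 and 0.196 FPKM. In single libraries Ifit2 was 43.9 to 144.6 times Ifit1, in the 11 libraries with any Ifit1 count, and 36.2 to 210.4 times Ifit3. Ifit1 stood at 0.158, 0.171, 0.147 and 0.125 FPKM with AngII, 0.392, 0.118, 0.167 and 0.130 with AngII+HNG and 0, 0.279, 0.301 and 0.361 with AngII+MOTS-c, on 0 to 26 counts per library. Its AngII+MOTS-c libraries include both the lowest value, at 0 counts, and 3 of the 4 highest values, and the groups overlapped. How reads shared by near-identical family members were assigned is not given in the sources used here, which limits the split within the Ifit, Mx and Oas families.

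Ifi27, a mitochondrial protein of the interferon-induced small membrane proteins, was the second most abundant member. It stood at 85.3, 87.9, 84.0 and 81.4 FPKM with AngII, 87.9, 92.8, 123.9 and 100.7 with AngII+HNG and 86.6, 82.0, 88.6 and 85.8 with AngII+MOTS-c. AngII+HNG replicate 3 was the highest library and AngII+HNG replicate 1 matched AngII replicate 2 to 3 digits, so the groups touched. Bst2, the membrane tether that holds budding virus at the cell surface, stood at 2.23, 3.87, 4.36 and 4.64 FPKM with AngII, 4.33, 4.22, 5.68 and 4.76 with AngII+HNG and 3.26, 2.60, 2.77 and 3.62 with AngII+MOTS-c. The AngII group alone spanned most of the range of Bst2, while the groups with the peptides did not overlap each other.

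Several other effectors were scarce. Isg15, the ubiquitin-like modifier, stood at 1.13, 1.23, 0.939 and 1.12 FPKM with AngII, 1.70, 1.38, 1.06 and 1.09 with AngII+HNG and 0.884, 1.16, 0.527 and 2.00 with AngII+MOTS-c, on 11 to 46 counts. Mx1, a GTPase that traps viral components, stood at 0.0579, 0.0148, 0.0895 and 0.0657 FPKM with AngII, 0.0676, 0.0710, 0.0858 and 0.136 with AngII+HNG and 0.0601, 0.105, 0 and 0.162 with AngII+MOTS-c, on 0 to 23 counts. The groups overlapped for both genes. Rsad2 (viperin) averaged 0.144 FPKM, and the oligoadenylate synthetase genes Oasl, Oas1a and Oas2 averaged 0.208, 0.0707 and 0.0169 FPKM, with Oas1a and Oas2 at no more than 9 counts in any library. Oas1a was listed at 0, 0, 0.0900 and 0 FPKM with AngII, 0, 0, 0.0959 and 0.148 with AngII+HNG and 0.0377, 0.146, 0.157 and 0.175 with AngII+MOTS-c, counts too low to be tested. Ifi44 (4.07 FPKM), Parp14 (4.03), Xaf1 (1.52) and Gbp2 (1.04) were the remaining effectors above 1 FPKM, and Gbp5 (0.433), Mx2 (0.132) and Ifi44l (0.128) lay below it.

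Usp18, the protease that removes ISG15 and damps the interferon receptor, averaged 0.236 FPKM. Cxcl10, the chemokine that draws T cells, stood at 0.427, 0.386, 0.439 and 0.766 FPKM with AngII, 1.29, 0.288, 0.627 and 0.727 with AngII+HNG and 0.550, 0.700, 0.438 and 0.396 with AngII+MOTS-c, on 13 to 43 counts. The AngII+HNG libraries of Cxcl10 held both the highest and the lowest value of the 12.

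The 7 class I genes all averaged at least 2.81 FPKM. B2m, the invariant light chain of every class I molecule, stood at 163.4, 169.9, 157.3 and 177.3 FPKM with AngII, 180.6, 179.1, 185.5 and 191.1 with AngII+HNG and 168.7, 155.3, 147.7 and 154.9 with AngII+MOTS-c. Every AngII+HNG library of B2m was above every library of the other 2 groups on the FPKM scale, narrowly so for AngII, whose libraries overlapped with AngII+HNG in normalised CPM. Tap1, one subunit of the transporter that carries peptides into the endoplasmic reticulum, stood at 3.31, 3.77, 3.58 and 3.62 FPKM with AngII, 3.27, 3.99, 4.14 and 3.74 with AngII+HNG and 3.58, 3.52, 3.64 and 3.23 with AngII+MOTS-c, with overlap. Its partner Tap2 averaged 4.06 FPKM and Tapbp (tapasin), which bridges the transporter and the class I molecule, 11.8 FPKM.

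Psmb8, an interferon-inducible catalytic subunit of the immunoproteasome, stood at 2.55, 3.09, 4.21 and 2.76 FPKM with AngII, 3.43, 4.11, 4.50 and 4.12 with AngII+HNG and 3.34, 3.35, 3.84 and 3.54 with AngII+MOTS-c. AngII replicate 3 lay well above the other 3 AngII libraries and among the AngII+HNG libraries. Psmb9 and Psmb10, the other inducible subunits, averaged 2.81 and 6.94 FPKM.

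The class II genes were close to the floor. Cd74, the invariant chain that guides class II molecules, stood at 0.124, 0.152, 0.176 and 0.0743 FPKM with AngII, 0.0343, 0.118, 0 and 0.186 with AngII+HNG and 0.0976, 0.104, 0.0878 and 0.0787 with AngII+MOTS-c, on 0 to 10 counts. Ciita, the master regulator of class II, averaged 0.0202 FPKM on 0 to 9 counts. Neither had enough counts to be tested.

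AngII+HNG was first compared with AngII. Ifit2 was lower with AngII+HNG and was the 1 member of 33 tested that passed the threshold, an adjusted p-value below 0.05 in the quasi-likelihood test of edgeR over all genes. Its level was 19.1, 17.9, 19.1 and 18.1 FPKM with AngII and 17.2, 16.2, 14.2 and 16.7 with AngII+HNG, and these groups did not overlap. With AngII+MOTS-c it was 17.95, 17.81, 19.14 and 18.34 FPKM, overlapping the AngII libraries. The log2 fold change, fitted on counts as all those below, was -0.22 (SE 0.057, 95% confidence interval -0.35 to -0.10, adjusted p = 0.0369, n = 4 libraries per group). In this comparison 5.98% of all 14524 genes tested passed the threshold, 3.4% higher and 2.58% lower, so that 1 of 33 members is not above the background. The Ifit2 call held in 10 of 20 alternative analyses, with adjusted p between 0.00583 and 0.115, and leaving out any 1 AngII library (adjusted p from 0.0564 to 0.115), AngII+HNG replicate 2 (0.0838) or AngII+HNG replicate 4 (0.0537) ended it. Its log2 fold change stayed between -0.26 and -0.17 throughout.

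The other members leaned higher without passing. A total of 28 of the 33 had a log2 fold change above 0, against 51.3% of all genes, and the median was 0.20 against 0.0043. That median ran from 0.13 to 0.24 when single libraries were left out, and down to 0.098 over the 20 alternatives. The lean was not particular to the members. It held for 84.2% of receptor and JAK-STAT genes, 81.0% of other interferon-induced genes and 88.9% of endothelial markers. The share was 48.3% for other class I genes and 11.1% for smooth muscle and pericyte markers. On normalised CPM, the scale used for all counts of overlap, the groups did not overlap for Ifih1 (0.20 on the log2 scale, adjusted p = 0.223), Stat2 (0.10, adjusted p = 0.244) and Psmb9 (0.52, adjusted p = 0.0797), besides Ifit2, which makes 4 of 33 beside 13.6% of all genes. Psmb9 passed in 3 of 20 alternatives, which do not include DESeq2 or limma, namely with the replicate block (adjusted p = 0.0490), in a fit with the library name number as block (0.0385) and without AngII+HNG replicate 1 (0.0418). The unadjusted p-value was below 0.05 for 10 members beside 20.3% of all genes. These were Ifit2, Ifih1, Stat2, Psmb9, Mx2 (1.03), Gbp2 (0.38), Psmb8 (0.35), Tap2 (0.30), Ifi27 (0.24) and B2m (0.12), with log2 fold changes in brackets where not given above. Mx1 and Mx2 had enough counts to be tested only where the AngII+HNG libraries entered, so their positive values carry that choice with them.

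By role, neither sensor, none of the 6 transcription factors, 1 of 16 effectors tested and none of the 7 class I genes passed. Irf3 had a log2 fold change of 0.06 with a 95% interval of -0.06 to 0.19, Irf1 of 0.02 (-0.10 to 0.14) and Tap1 of 0.07 (-0.12 to 0.26). The intervals were wider for Irf7 (0.22, -0.11 to 0.55), Irf8 (0.27, -0.03 to 0.57) and Psmb8 (0.35, 0.0056 to 0.69). For Isg15 (0.21, interval -0.28 to 0.70), Ifit1 (0.28, -0.59 to 1.16) and Cxcl10 (0.45, -0.39 to 1.29) the counts left both directions possible. Of the 16 macrophage markers tested, 5 were higher in this comparison and 11 did not pass, and their part in the result was not tested.

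AngII+MOTS-c was then compared with AngII. None of the 31 members tested passed in edgeR, and none passed in any of the 20 alternatives, DESeq2 and limma among them. In this comparison 0.0069% of all genes tested passed, which is 1 gene of 14488. The unadjusted p-value was below 0.05 for 3 members beside 5.05% of all genes, namely Ifih1 (0.17), Irf1 (0.13) and B2m (-0.10, on the log2 scale), each with an adjusted p of 0.924. The libraries did not overlap for Ifih1, Stat2 (0.06) and Irf1, which were higher with AngII+MOTS-c, beside 3.5% of all genes. The median over the 31 members was 0.07 against -0.00076 over all genes, and 23 of the 31 lay above 0, beside 49.6% of all genes. Over the 20 alternatives that median ran from 0.019 to 0.093.

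The intervals were narrow for the abundant members. The 95% interval of the log2 fold change was -0.07 to 0.09 for Ifi27, -0.11 to 0.05 for Ifit2, -0.05 to 0.15 for Irf3 and -0.20 to -0.0024 for B2m. They were wide for the scarce ones, at -0.69 to 1.80 for Ifit1 and -1.25 to 0.18 for Ifit3.

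AngII+HNG against AngII+MOTS-c called 2 of 33 members (6.06%), both higher with AngII+HNG, where 2.64% of 14448 genes were called higher and 4.41% in either direction. In edgeR, 6 of the 33 had an unadjusted p below 0.05, beside 19.3% of all genes. B2m was at 184 ± 5.43 FPKM with AngII+HNG and 157 ± 8.80 with AngII+MOTS-c (SD, n = 4 each), a log2 fold change of 0.22 (SE 0.045, interval 0.12 to 0.32, adjusted p = 0.0148). Bst2 was at 4.75 ± 0.666 and 3.06 ± 0.467 FPKM, a difference of 0.61 on the log2 scale or 1.53-fold (SE 0.15, interval 0.29 to 0.93, adjusted p = 0.0360). Neither gene overlapped between these groups. The AngII mean lay between them in both genes, at 167 ± 8.61 FPKM for B2m and 3.77 ± 1.08 for Bst2, and neither gene passed against AngII on either side. Single AngII libraries of Bst2 ran from 2.23 to 4.64 FPKM and overlapped both peptide groups. Those of B2m overlapped AngII+MOTS-c.

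B2m was called in 17 of 20 alternatives and Bst2 in 10. The B2m call was lost without AngII+MOTS-c replicate 2 (adjusted p = 0.0645), without AngII+MOTS-c replicate 3 (0.0658) and when both libraries numbered 4 were left out (0.0815). The Bst2 adjusted p ranged from 0.0146 to 0.113, and leaving out AngII+MOTS-c replicate 1, 2 or 3 or AngII+HNG replicate 2, 3 or 4 each ended its call. Bst2 was also lost in a fit of all 12 libraries and with the library name number as block. The same held with replicates 2 and 3 summed and without both libraries numbered 4. Ifit2 was lower with AngII+HNG, at -0.20 (adjusted p = 0.0777), without overlap, and it was called by DESeq2 (0.0315) and in a fit of all 12 libraries (0.0363). Irf1 was also lower without overlap (-0.11, adjusted p = 0.322). In all, the libraries did not overlap for 4 of the 33 members beside 12.7% of all genes, and 23 of 33 were higher with AngII+HNG beside 50.6% of all genes, with a median of 0.10 against 0.0023. That median ran from 0.038 to 0.145 when single libraries were left out. This comparison shares its AngII+HNG libraries with the first and its AngII+MOTS-c libraries with the second, so the 3 are not independent.

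**Figure D2:**
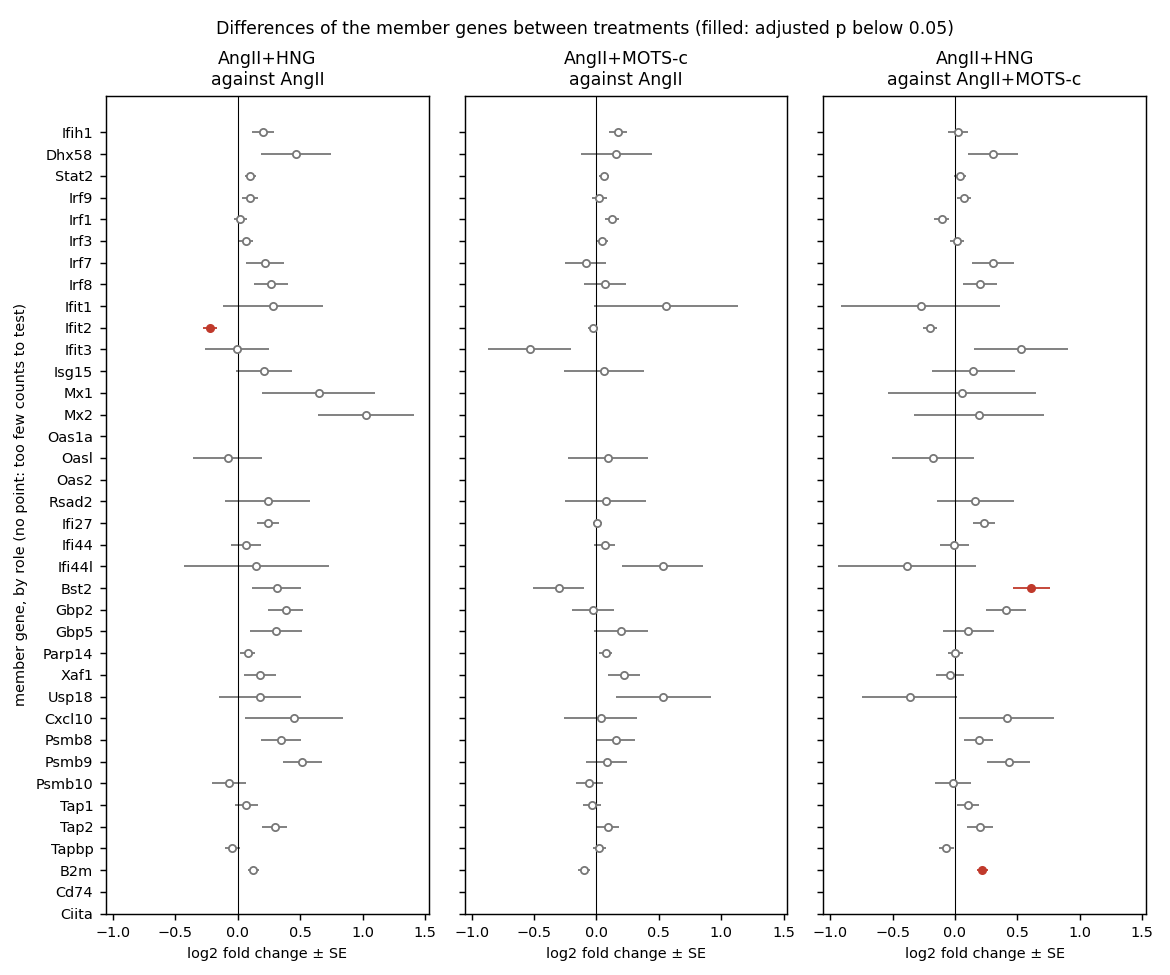
Log2 fold change with its standard error for every member tested, ordered by role, in the 3 comparisons; filled red points have an adjusted p below 0.05 (Ifit2 at the left, Bst2 and B2m at the right). Error bars are wide for the scarce members such as Ifit1, Mx1 and Ifi44l and short for Irf3, Ifit2 and B2m.

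**Figure D3:**
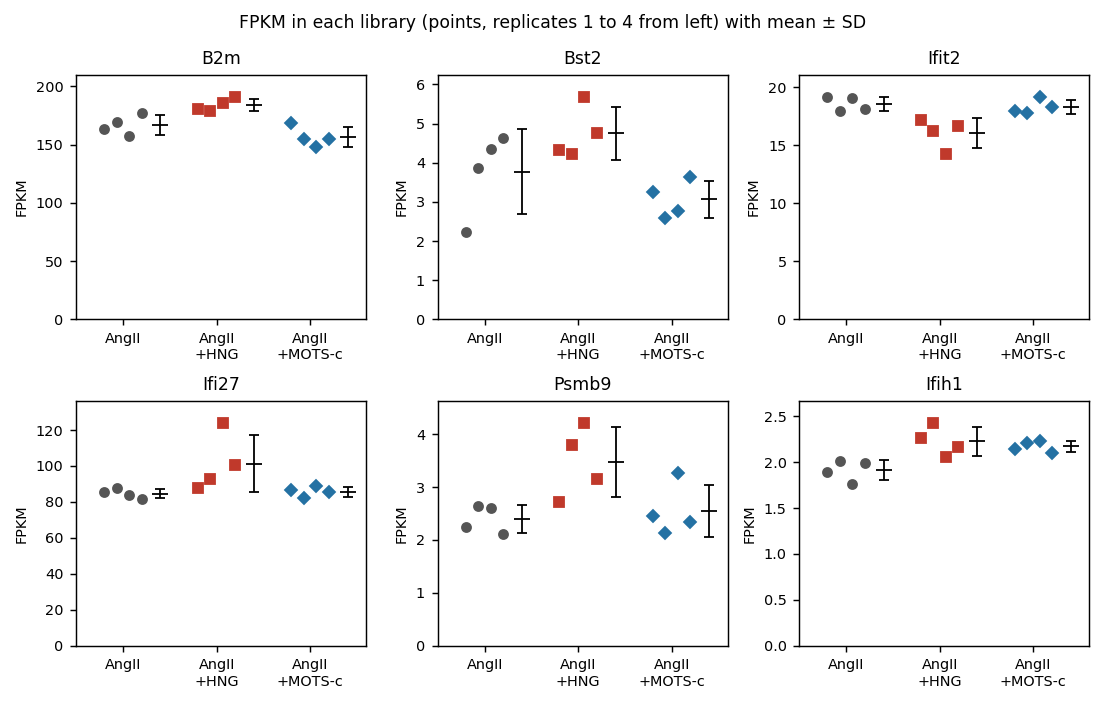
FPKM of 6 members in each library, replicates 1 to 4 from left within each group, with the mean and SD beside them; every axis starts at 0. The AngII+HNG libraries of Ifit2 lie below all others and those of B2m above all others, while AngII replicate 1 sets the wide spread of Bst2 in the AngII group.

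The immunoproteasome was also read as the ratio of each inducible subunit to the constitutive subunit whose place it takes, on the FPKM scale. Psmb9 was 3.91, 4.31, 4.32 and 3.90% of Psmb6 in the AngII libraries, 5.17, 6.42, 6.76 and 5.94% with AngII+HNG and 3.85, 3.96, 5.45 and 4.14% with AngII+MOTS-c. The means were 4.11 ± 0.238%, 6.07 ± 0.689% and 4.35 ± 0.744% (SD, n = 4), and the AngII+HNG and AngII libraries did not overlap. The log2 difference between AngII+HNG and AngII was 0.56, with p = 0.0286 in a two-sided exact permutation test, the smallest value that 4 against 4 libraries can give, and an adjusted p of 0.257 over the 9 ratio tests. The constitutive subunits Psmb5, Psmb6 and Psmb7 averaged 100.9, 57.9 and 100.02 FPKM.

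Psmb8 was 3.05 ± 0.691% of Psmb5 with AngII, 3.99 ± 0.460% with AngII+HNG and 3.61 ± 0.207% with AngII+MOTS-c. Its log2 difference between AngII+HNG and AngII was 0.40 (exact permutation p = 0.0857, adjusted p = 0.257). Psmb10 was 7.13 ± 0.820%, 6.81 ± 0.960% and 6.85 ± 0.858% of Psmb7, with a log2 difference of -0.07 between AngII+HNG and AngII (exact permutation p = 0.6, adjusted p = 0.771). None of the 9 ratio tests passed after adjustment, and 1 ratio alone could not have passed with the smallest p this design allows. In RefSeq GRCr8, Psmb8, Psmb9, Tap1 and Tap2 lie together on chromosome 20, and Psmb9 and Tap1 start on opposite strands with windows that overlap. Between AngII+HNG and AngII the log2 fold change was 0.52 for Psmb9 and 0.07 for Tap1, and the difference between these 2 genes was not tested.

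**Figure D4:**
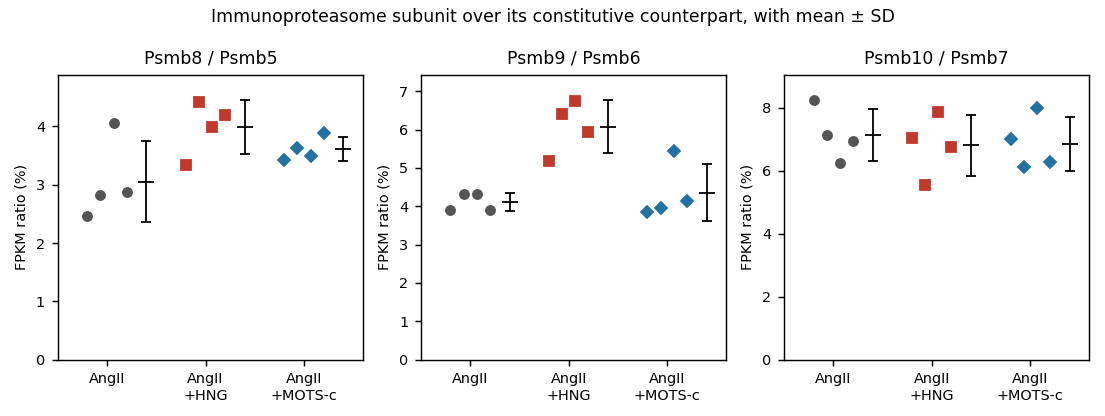
Each inducible proteasome subunit as a percentage of its constitutive counterpart on the FPKM scale, by library, with mean and SD. For Psmb9 the AngII+HNG libraries (5.17 to 6.76%) lie above all AngII libraries (3.90 to 4.32%), while Psmb8 and Psmb10 overlap between the groups.

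The genes upstream and around the members were read from 6 lists. Of 9 interferon ligand genes in the table, 2 had any count, with 5 counts over the 12 libraries together, so interferon transcripts were at or near 0 in these cultures at this depth. None could be tested. None of the 19 genes of the interferon receptors and the JAK-STAT pathway passed in any comparison in edgeR, with an unadjusted p below 0.05 for 4, 2 and 2 of them in the order of the comparisons above, beside 20.3%, 5.05% and 19.3% of all genes.

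Between AngII+HNG and AngII, 15 of 141 list genes tested passed, 13 of them higher, beside 5.98% of all genes in either direction. Of 20 nucleic acid sensing genes tested, Ikbke, a kinase that activates IRF3, was higher, at 5.15, 5.21, 5.17 and 4.97 FPKM against 4.04, 4.07, 4.16 and 3.88 with AngII (log2 fold change 0.28, adjusted p = 0.0141). Ikbke was called in 19 of 20 alternatives and lost without both libraries numbered 4 (adjusted p = 0.0620). Of 58 other interferon-induced genes tested, 7 were higher and 2 lower. Of the 29 other class I and peptide loading genes, RT1-A2, a class I heavy chain of a family of close relatives, was higher (0.39, adjusted p = 0.0206), and Psmb5, Psmb6 and Psmb7 did not pass. RT1-A2 was called in 16 of 20 alternatives and lost without AngII replicate 1 or 3, without AngII+HNG replicate 4 and with replicates 2 and 3 summed (adjusted p up to 0.0632). Leaving out AngII replicate 1 reduced the 15 to 8.

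Of the 5 schlafen genes on the list, interferon-induced regulators of RNA and of cell growth, 4 were among the 7 higher genes, and they were grouped by family after the calls were seen. The fifth, Slfn3, did not pass (0.44, adjusted p = 0.217). Slfn4 stood at 2.68, 2.79, 2.91 and 2.81 FPKM with AngII, 4.79, 4.28, 4.55 and 4.52 with AngII+HNG and 2.67, 2.76, 2.99 and 2.78 with AngII+MOTS-c. Slfn2 stood at 4.33, 4.66, 4.96 and 5.85, 8.15, 7.84, 8.68 and 9.34 and 5.28, 5.82, 6.07 and 6.10 FPKM in the same order of groups. For both genes every AngII+HNG library lay above every other library. Their log2 fold changes against AngII were 0.65 (SE 0.064, adjusted p = 0.000152) and 0.74 (SE 0.10, adjusted p = 0.0012), and against AngII+MOTS-c 0.63 (adjusted p = 0.000617) and 0.51 (adjusted p = 0.00387). Slfn5 was higher by 0.30 against AngII (adjusted p = 0.00154) and by 0.27 against AngII+MOTS-c (adjusted p = 0.00804), and Slfn13 by 0.24 against AngII (adjusted p = 0.00504). Slfn2, Slfn4 and Slfn5 were called in all 20 alternatives of both comparisons, and Slfn13 in all 20 of the one with AngII. Members of this family are similar in sequence, so reads could be split among them.

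Trim34 was also higher with AngII+HNG than with AngII (0.56, adjusted p = 0.0188). It was called in 16 of 20 alternatives and lost without AngII replicate 1 or 3, without AngII+HNG replicate 4 and without both libraries numbered 4 (adjusted p up to 0.107). The 4 remaining called genes of the list were chosen for naming after their values were seen. Lgals3bp (0.21, adjusted p = 0.0335) and Irgm (0.44, adjusted p = 0.0448) were higher, and Ccl2, the chemokine that draws monocytes (-0.72, adjusted p = 0.0387), and Casp12 (-0.27, adjusted p = 0.0217) were lower. Ccl2 was at 60.9, 71.8, 49.7 and 72.3 FPKM with AngII and 42.7, 41.1, 22.6 and 49.7 with AngII+HNG, so that the FPKM ranges met at their edges.

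The class II list held 4 called genes of 15 tested between AngII+HNG and AngII, all higher, beside 3.4% of all genes called higher, and all 4 were lysosomal proteases that cut the invariant chain or antigen and that act in general protein breakdown as well. Ctsl stood at 330.1, 351.7, 350.2 and 353.5 FPKM with AngII, 435.6, 422.7, 450.9 and 432.8 with AngII+HNG and 339.8, 345.2, 347.4 and 357.9 with AngII+MOTS-c, so every AngII+HNG library was the higher. Its log2 fold change was 0.31 against AngII (SE 0.038, adjusted p = 0.000575) and 0.31 against AngII+MOTS-c (adjusted p = 0.00074). Lgmn was higher by 0.36 and 0.30 (adjusted p = 0.00292 and 0.0158), Ctsb by 0.39 and 0.39 (0.00832 and 0.0122) and Ctss, the cathepsin of antigen-presenting cells, by 0.37 and 0.35 (0.0127 and 0.0196). Against AngII, Ctss was lost without AngII replicate 1 (adjusted p = 0.0568). Against AngII+MOTS-c, Ctss was called in 16, Lgmn in 18 and Ctsb in 19 of 20 alternatives. There all 3 were lost without AngII+MOTS-c replicate 2 (adjusted p from 0.0553 to 0.0732), Lgmn also without AngII+MOTS-c replicate 1, and Ctss also without AngII+MOTS-c replicate 3, AngII+HNG replicate 4 or both libraries numbered 4 (adjusted p up to 0.0873). The class II molecules themselves were near the floor, with RT1-Ba at 0 in all libraries, RT1-Da and RT1-Bb at no more than 5 counts and RT1-Db1 at no more than 10.

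Between AngII+HNG and AngII+MOTS-c, 10 of 138 list genes tested passed, and all 10 were higher with AngII+HNG, beside 4.41% of all genes called in either direction and 2.64% called higher. They were the 4 proteases, Slfn2, Slfn4, Slfn5, Ifitm1 (0.17, adjusted p = 0.0256), Lgals9 (0.28, adjusted p = 0.0439) and Marchf1, a ligase that removes class II from the surface (0.79, adjusted p = 0.00731). Marchf1 was scarce, at 0.473, 0.525, 0.552 and 0.509 FPKM with AngII+HNG and 0.299, 0.260, 0.355 and 0.272 with AngII+MOTS-c, and its difference was 0.22 in limma on log2(FPKM + 1), a scale that understates changes of low genes. Ifitm1 was called in 12 and Lgals9 in 8 of the 20 alternatives. Leaving out AngII+MOTS-c replicate 2 reduced the 10 to 5. Between AngII+MOTS-c and AngII none of 140 list genes passed in edgeR, DESeq2 or limma, and 9 had an unadjusted p below 0.05.

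Some of the macrophage markers were higher in the same libraries as these genes. Of the 16 tested, 5 were higher with AngII+HNG than with AngII (Lyz2, Cd68, Mrc1, Ptprc and Spi1) and 5 than with AngII+MOTS-c (Lyz2, Cd68, Mrc1, Aif1 and Laptm5). In each comparison the other 11 did not pass, and 3 of the 16 had values below 0 in both, namely Adgre1 (-0.36 and -0.26 on the log2 scale), C1qb (-0.05 and -0.19) and C1qc (-0.43 and -0.67). Markers on the other lists also differed between AngII+HNG and AngII+MOTS-c, with Tcf21 (0.35), Thy1 (0.35), Tnni3 (0.54), Tie1 (0.47) and Tek (0.35) called higher with AngII+HNG and Cnn1 (-0.22), Acta2 (-0.26) and Notch3 (-0.37) called lower. Between AngII+MOTS-c and AngII no macrophage marker passed in edgeR, with 0 of 16 at an unadjusted p below 0.05. Lyz2, a macrophage and neutrophil lysozyme, averaged 101.6 FPKM over the 12 libraries and ranged from 74.4 to 162.7. Csf1r averaged 14.3 FPKM, Ptprc 3.56 and Cd163 0.0304. The part of these signals in the values of Slfn2, Slfn4, Ctss, Ctsb, Lgmn, B2m and Bst2 was not tested.

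**Figure D5:**
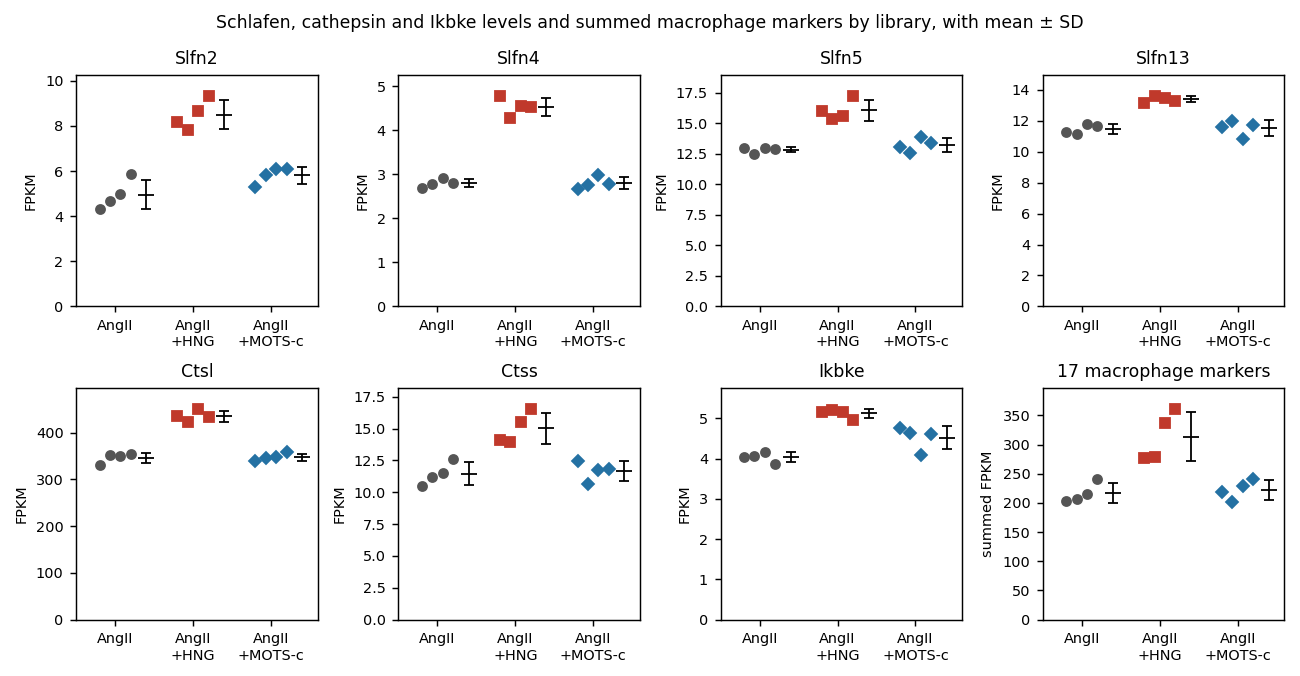
FPKM of 7 list genes and the summed FPKM of 17 macrophage markers in each library, replicates 1 to 4 from left, with mean and SD; every axis starts at 0. In all 8 panels the AngII+HNG libraries lie above the AngII libraries, and the macrophage sum runs from 277.0 to 361.1 FPKM with AngII+HNG against 202.7 to 241.2 with AngII.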

How the data were processed

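RNA of 12 cultures (AngII, AngII+HNG and AngII+MOTS-c, 4 libraries each, grouped by sample title) was sequenced as paired-end mRNA libraries on a DNBSEQ platform. The authors deposited a table of read counts per gene, not normalized, and a table of FPKM values, a measure that scales a gene's count to its length and to the depth of the library. The FPKM values were not a fixed scaling of these counts. Irf8 had 117 counts at 0.518 FPKM in AngII+MOTS-c replicate 2 and 127 counts at 1.06 FPKM in AngII+MOTS-c replicate 1. Directions could differ too. Irf9 averaged 9.49 FPKM with AngII+HNG and 9.72 with AngII, while its log2 fold change on counts was 0.098. Levels and ratios rest on FPKM, and fold changes on counts. The submitters' processing notes name HISAT2, Picard 1.41 and SAMtools 0.1.18. The counting tool, the use of strand, the genome build and the annotation are not given in the sources used here, so reads of near-identical or overlapping genes may be shared.

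Members were matched by symbol. FPKM served for levels. Counts were tested in R 4.3.3 with edgeR 4.0.16 (filterByExpr, TMM, glmQLFit and glmQLFTest) on the 8 libraries of each comparison, with Benjamini-Hochberg adjustment over all genes tested and a threshold of 0.05. Standard errors were derived from the F statistic. Ratios of proteasome subunits were tested by two-sided exact permutation tests of mean log2 ratios in SciPy 1.17.1. Separate library numbers are the labels' biological replicates, but where cultures shared a cell preparation, p-values measure only the spread between these libraries. Libraries held 27960586 to 38322354 counts, and the floor of 3 counts covers counting error only. Alternatives were DESeq2 1.42.0, RLE size factors, a single fit over all 12 libraries, no filter, a minimum of 10 counts in each library, robust estimation, blocks by replicate number or by library name number, replicates 2 and 3 (which share a number in their library names) summed, limma 3.58.1 on log2(FPKM + 1) and log2(FPKM + 0.1), both libraries numbered 4 left out, and each library left out in turn. Promoter windows are those of RefSeq (GRCr8).

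The members, the pathway lists and the marker lists were chosen with earlier results of these data known. Values are given by library for members called in any comparison, the most abundant member of each role and Irf7, Isg15, Ifit1, Mx1, Cxcl10, Psmb8, Tap1 and Cd74. Of the lists, at most 5 called genes per list and comparison were named by rule, 1 further gene that the rule names is not reported here, and Oas1a was added after its values were seen. No set test was run and no p-value was adjusted over the members alone.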

Additional observations from a re-analysis of the deposited data

Results flagged for a closer look

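In 5 of 114 groups of 4 libraries a single library stood apart from the other 3 by more than Dixon's critical value, which chance gives in about 5% of groups. Irf3 was at 47.1 FPKM in AngII+HNG replicate 3 against 40.9 to 41.8 in the other 3 libraries, and the summed FPKM of the 6 transcription factors was 80.9 in the same library against 72.9 to 74.0, a sum of which Irf3 is the largest part. Cxcl10 was at 0.766 FPKM in AngII replicate 4 against 0.386 to 0.439. Slfn5 was at 12.5 FPKM in AngII replicate 2 against 12.9 to 13.0, and Ctsl was at 330.1 FPKM in AngII replicate 1 against 350.2 to 353.5. Slfn5 and Ctsl passed the threshold between AngII+HNG and AngII also without these libraries.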

How the results depend on the processing

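Nothing in the labels pairs libraries by replicate number, and the correlation was not above 0.1 for every pair in any comparison, so the block was not used as the main analysis. Same-numbered libraries of AngII+HNG and AngII deviated together with a mean correlation of 0.0133, of AngII+MOTS-c and AngII of 0.0540 and of AngII+HNG and AngII+MOTS-c of 0.111, and 1, 2 and 3 of 4 libraries correlated best with their own number, replicate 4 in all 3 comparisons. With the replicate block, 2 members were called between AngII+HNG and AngII in place of 1, and 2 with a block by the library name number. The count was 0 with replicates 2 and 3 summed, in limma with either pseudocount and without both libraries numbered 4, and 0 to 2 when single libraries were left out. Between AngII+HNG and AngII+MOTS-c the 2 calls remained 2 with the replicate block. They became 1, that of B2m, by the name number block or with replicates 2 and 3 summed. They became 0 without both libraries numbered 4 and 0 to 2 when single libraries were left out. List genes called were 8 to 15 and 5 to 10 in these 2 comparisons when single libraries were left out, and 15 in the second with the block or with DESeq2.

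Directions turned only for values that passed in neither fit. Between AngII+MOTS-c and AngII, Isg15 went to -0.010 with the replicate block, -0.017 and -0.087 in limma with pseudocounts of 1 and 0.1, and -0.32 without both libraries numbered 4, where Irf3 and Ifi27 both went to -0.011 and Tap1 to 0.0062. Irf7 went to 0.11 and Cxcl10 to -0.036 by the name number block, and Cxcl10 to -0.028 with replicates 2 and 3 summed. Between AngII+HNG and AngII+MOTS-c, Isg15 went to -0.027 by the name number block, Mx1 to -0.0016 with replicates 2 and 3 summed and Ifit1 to 0.18 without both libraries numbered 4. When single libraries were left out, Ifit1 ranged from -0.21 to 0.48 between AngII+HNG and AngII. There Cxcl10 (0.064 to 0.74), Irf7 (0.12 to 0.31) and Ifi27 (0.13 to 0.30) kept their direction but moved in size. Between AngII+MOTS-c and AngII, Cxcl10 ranged from -0.15 to 0.30, Isg15 from -0.33 to 0.28, Ifi27 from -0.011 to 0.032 and Irf7 from -0.19 to 0.043. Between AngII+HNG and AngII+MOTS-c, Irf3 ranged from -0.037 to 0.051, Mx1 from -0.32 to 0.63, Isg15 from -0.073 to 0.54, Ifit1 from -0.77 to 0.016 and Ifih1 from -0.028 to 0.059. The log2 ratio difference of Psmb10 to Psmb7 ranged from -0.15 to 0.022, from -0.14 to 0.012 and from -0.087 to 0.081 in the 3 comparisons, and that of Psmb9 to Psmb6 from -0.044 to 0.12 between AngII+MOTS-c and AngII. The causes were not tested. Of 1234 values of single genes, 1141 kept direction and side of the threshold, a count that includes genes never called. Among the called members, Ifit2 and Bst2 each kept the call in 10 of 20 alternatives and B2m in 17. Members below 1 FPKM rest on at most 64 counts per library.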
